A study of Mus musculus with 20 samples.

Results

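Thymic cells sorted as IL25R+ group 2 innate lymphoid cells (ILC2) received IL-25 and IL-33 together and were compared with the same cells given vehicle alone, across every gene of the deposited count table. The comparison was chosen by treatment and not by measured values, and it takes 6 of the 20 samples of the series. There were 3 libraries with both cytokines (recombinant IL-25 and recombinant IL-33, each at 10 ng/mL) and 3 libraries with phosphate-buffered saline as vehicle. The 3 libraries with IL-25 alone and the 3 with IL-33 alone, at the same doses, are used where the joint response is set against a single cytokine. All mice were young wild-type males. Every culture, vehicle included, held IL-7 at 10 ng/mL, had its medium changed after 12 h and grew for 24 h more before the 24 h of treatment. Replicates are separate samples by their labels, which give neither the number of mice nor the number of cells behind each. The p-values therefore measure the spread between samples, estimated over all 12 IL25R+ libraries together.

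ILC2 are lymphocytes without an antigen receptor that answer alarm signals from tissue with type-2 cytokines such as IL-13 and IL-5. IL-25 acts through a receptor of IL-17RA and IL-17RB, and IL-33 through ST2, which Il1rl1 encodes, paired with the IL-1 receptor accessory protein. Both receptors reach NF-kB and MAP kinases, by different adaptors. By its title, the series concerns tuft cells, fibroblasts and type-2 immunity in regeneration of the thymus, the organ in which T cells form.

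RNA was counted at the 3′ end by bulk MARS-seq, in which samples are barcoded and pooled early. Total counts were 1398657 to 1880906 per library with both cytokines and 834913 to 1423004 with vehicle, so a gene at a few CPM (counts per 1e+06 counts of the library, scaled by TMM) rests on a handful of counts. Of 10696 genes listed, 8850 passed the filter on low counts. The biological coefficient of variation between replicates, 1 value for all 12 IL25R+ libraries, was 0.128. By a chi-square over genes per degree of freedom, pairs of IL-33 replicates differed most, at 5.3 to 7.9. Replicate pairs with both cytokines and with vehicle were at 1.83 to 2.39, and IL-25 pairs at 2.19 to 3.05. Along the first principal component of the 2000 genes with the most variance, which took up 37.7% of it, the 3 libraries with both cytokines and the 3 with vehicle lay at opposite ends. Glycam1, a secreted mucin-like glycoprotein, parts the 12 IL25R+ libraries into those above and those below 10 CPM. It was at 150 to 154 CPM with both cytokines and 116 to 439 CPM with vehicle, so these groups lie on one side, while all 3 IL-25 libraries and IL-33 libraries 1 and 2 lie on the other.

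The sort was checked against marker genes. Of 14 ILC2 markers 9 could be tested, and the summed level of the list was 3360 to 3470 CPM with both cytokines and 3390 to 3530 CPM with vehicle, most of it Thy1. Of these 9, Gata3, Il1rl1, Icos and Il2ra were called higher with both cytokines and 0 were called lower. Rora, a transcription factor that ILC2 need, was low at 5.08, 7.11 and 8.28 CPM with both cytokines, against 11.8, 10.5 and 9.49 CPM with vehicle, and did not pass (edgeR adjusted p = 0.256). Klrg1 had 11 counts over the 3 libraries with both cytokines and 2 over the vehicle libraries. Arg1 had 6 counts with both cytokines and 2 with vehicle, Ptpn13 had 12 with both cytokines and 5 with vehicle, and Hlf had 16 with both cytokines and 0 with vehicle. Genes of immature T cells were present in every library: Dntt, the polymerase that adds bases at receptor gene joints, had 365, 320 and 332 CPM with both cytokines, against 627, 638 and 676 CPM with vehicle. Cd8a, Cd8b1, Cd3e and Rag1 were detected in all 6 libraries as well. Because the defining markers of both lineages are present, the cells are called IL25R+ cells here. In bulk samples, fewer cells of a type and less RNA per cell cannot be told apart.

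The promoters of 6 genes whose RNA rose are printed here because most members of their lists that passed the test rose, and each holds a motif long linked to such genes: NF-kB for Il6, Nfkbia and Tnip1, E2F for the helicase subunit Mcm5, and the cell-cycle homology region (CHR) for Top2a and Ube2c. Each runs from 250 bases before to 50 bases after the RefSeq transcription start in build GRCm38.p6, is written 5′ to 3′ on the gene's strand, and has the motif in capitals.
Il6, chr5:30012864-30013163, plus strand: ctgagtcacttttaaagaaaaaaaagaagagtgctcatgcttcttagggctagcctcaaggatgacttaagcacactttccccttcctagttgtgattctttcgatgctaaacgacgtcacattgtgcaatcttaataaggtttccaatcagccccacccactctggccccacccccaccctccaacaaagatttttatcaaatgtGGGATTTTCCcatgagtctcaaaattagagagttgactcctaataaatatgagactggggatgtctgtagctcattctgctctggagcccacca
Nfkbia, chr12:55492598-55492897, minus strand: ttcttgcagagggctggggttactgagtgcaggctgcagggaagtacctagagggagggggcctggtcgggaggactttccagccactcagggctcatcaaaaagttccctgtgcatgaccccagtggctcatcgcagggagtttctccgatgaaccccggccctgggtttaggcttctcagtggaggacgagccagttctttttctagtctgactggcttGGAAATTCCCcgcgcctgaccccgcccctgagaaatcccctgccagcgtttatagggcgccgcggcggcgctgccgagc
Tnip1, chr11:54962891-54963190, minus strand: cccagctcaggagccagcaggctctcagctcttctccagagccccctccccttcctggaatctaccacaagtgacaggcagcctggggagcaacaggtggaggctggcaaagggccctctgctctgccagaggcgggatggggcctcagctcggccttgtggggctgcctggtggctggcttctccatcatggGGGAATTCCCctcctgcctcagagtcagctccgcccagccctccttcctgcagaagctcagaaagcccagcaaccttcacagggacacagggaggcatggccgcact
Mcm5, chr8:75109259-75109558, plus strand: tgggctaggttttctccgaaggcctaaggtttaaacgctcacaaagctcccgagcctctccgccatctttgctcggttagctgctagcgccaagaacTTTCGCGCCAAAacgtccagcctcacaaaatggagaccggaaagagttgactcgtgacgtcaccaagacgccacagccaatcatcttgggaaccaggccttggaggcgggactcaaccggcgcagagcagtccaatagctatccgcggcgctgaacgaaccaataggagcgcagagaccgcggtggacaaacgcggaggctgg
Top2a, chr11:99024140-99024439, minus strand: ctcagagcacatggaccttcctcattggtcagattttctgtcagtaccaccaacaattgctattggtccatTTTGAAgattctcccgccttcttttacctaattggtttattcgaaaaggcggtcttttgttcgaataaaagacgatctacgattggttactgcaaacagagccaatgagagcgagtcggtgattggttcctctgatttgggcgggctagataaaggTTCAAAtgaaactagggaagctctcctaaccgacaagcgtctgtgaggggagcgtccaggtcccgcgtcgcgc
Ube2c, chr2:164769679-164769978, plus strand: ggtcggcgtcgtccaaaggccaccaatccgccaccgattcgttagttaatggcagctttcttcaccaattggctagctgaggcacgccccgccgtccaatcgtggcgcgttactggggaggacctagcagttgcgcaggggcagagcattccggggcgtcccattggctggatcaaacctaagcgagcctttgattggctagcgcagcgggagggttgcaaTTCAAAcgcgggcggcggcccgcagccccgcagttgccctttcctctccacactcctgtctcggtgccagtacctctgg

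By edgeR's quasi-likelihood test with Benjamini-Hochberg adjustment at 0.05, 1384 of the 8850 genes tested (15.6%) differed between both cytokines and vehicle, 794 higher (8.97%) and 590 lower (6.67%). Rises were the larger: 310 genes (3.5%) rose and 96 (1.08%) fell at least 2-fold. The median log2 change over all genes tested was -0.03. Values were fully separate between the groups for 1362 of the 1384 (98.4%), against 36.3% of all genes tested. The genes were called on these same values, so separate groups, here and below, describe a call and add no support to it. Vehicle library 1 weighed most: without it 779 genes passed, of which 739 were among the 1384. Counts of list members called below are to be read against the shares of all genes tested, 8.97% higher and 6.67% lower.

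**Figure D1:**
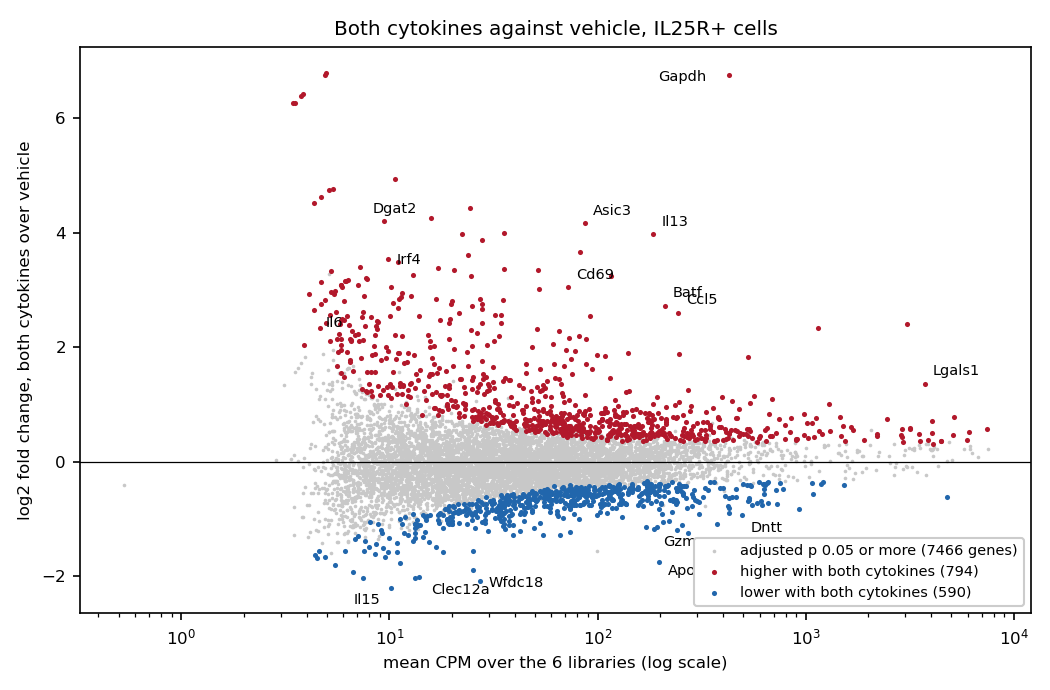
Log2 fold change of both cytokines over vehicle (y axis) against the mean CPM of the 6 libraries (x axis, log scale), 1 point per gene tested, red for the 794 higher and blue for the 590 lower genes by edgeR at adjusted p under 0.05. The red cloud reaches further from 0 than the blue one: Asic3 (4.16) and Il13 (3.97) are not the highest, since genes near 0 in vehicle such as Gapdh (6.75) lie above them. The lowest blue point at a mean of 10 CPM or more, Il15, is at -2.20.

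Il13, the central type-2 effector cytokine (mm10 chromosome 11, 53631324 to 53634702), rose with both cytokines. It had 375, 364 and 301 CPM with both cytokines, against 15.04, 32.8 and 21.8 CPM with vehicle, a log2 change of 3.97 ± 0.44 (SE; edgeR adjusted p = 1.38e-06). Every library with both cytokines was far above every vehicle library. Il4, the other type-2 cytokine that could be tested, had 7.99, 4.92 and 3.18 CPM with both cytokines, against 2.62, 2.34 and 4.74 CPM with vehicle, and the groups overlapped (0.70 ± 0.57, edgeR adjusted p = 0.443). Il5 was under the filter, at 4, 6 and 7 counts with both cytokines and 0, 0 and 1 with vehicle, a ratio of pooled CPM of 12.2 with a 95% counting interval from 1.92 to 511. Il9 rested mostly on 1 library, with 2, 215 and 23 counts with both cytokines and 3, 1 and 4 with vehicle. With no filter on low counts 2 type-2 cytokines passed in place of 1. Areg was not analysed here.

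Of 11 other cytokines and secreted products tested, 9 rose and 1 fell, with a median log2 change of 1.46. Ebi3, a subunit shared by IL-27 and IL-35, had 40.7, 48.1 and 38.2 CPM with both cytokines, against 3.27, 0 and 3.80 CPM with vehicle (3.98 ± 0.48, edgeR adjusted p = 4.05e-06). Tnf, which encodes tumour necrosis factor, had 87.2, 68.9 and 77.1 CPM with both cytokines, against 24.2, 15.2 and 16.1 CPM with vehicle (2.0 ± 0.22, edgeR adjusted p = 9.37e-07). For both genes the groups stood well apart. Il6, an inflammatory cytokine (mm10 chromosome 5, 30013114 to 30019981), was low but separate, with 13.1, 9.85 and 10.8 CPM with both cytokines, against 1.31, 1.17 and 4.74 CPM with vehicle (2.21 ± 0.52, edgeR adjusted p = 0.0055). Csf2, which encodes GM-CSF, had 6.54, 11.5 and 14.7 CPM with both cytokines, against 1.96, 0 and 3.80 CPM with vehicle (2.39 ± 0.72, edgeR adjusted p = 0.0264). Lif, a cytokine of the IL-6 family, averaged 12.1 ± 4.35 CPM with both cytokines and 2.92 ± 2.59 CPM with vehicle (SD, n = 3 each; 2.13 on the log2 scale). Osm, of the same family, rose to 104 ± 17.2 CPM with both cytokines, against 51.2 ± 6.05 CPM with vehicle (1.0 ± 0.17). Furin, a protease that activates precursor proteins, rose by 1.46 ± 0.20, and the lymphotoxins Lta (0.51 ± 0.13) and Ltb (0.48 ± 0.10) rose by less. Tgfb1, at 107 ± 9.42 CPM with both cytokines and 89.9 ± 7.67 CPM with vehicle, did not pass. The count of 9 fell to 5 without vehicle library 1, where Il6 stood at an adjusted p of 0.0613 and Lta at 0.0751 by edgeR. Csf2 missed the threshold in 5 and Lif in 4 of the 18 alternatives that tested them, among them the fits without vehicle library 1, without library 3 with both cytokines and, for Csf2, without library 2 with both or vehicle library 2 and by limma-voom, and, for Lif, without library 1 with both or vehicle library 3.

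Il15, which sustains lymphocytes (mm10 chromosome 8, 82331632 to 82403222), was the one member of that list to fall. Its fall was the largest among genes called lower at a mean of 10 CPM or more. It had 3.63, 3.28 and 3.82 CPM with both cytokines, against 14.4, 14.1 and 21.8 CPM with vehicle (-2.20 ± 0.37, edgeR adjusted p = 0.000255). Ifng and Il22, cytokines of other innate lymphoid cells and of T cells, were under the filter. Ifng had 22, 3 and 1 counts with both cytokines and 0 in every vehicle library, so that library 1 held most of its counts. Il22 had 0, 22 and 0 counts with both cytokines and 1, 0 and 0 with vehicle, so that 1 library carried it.

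**Figure D2:**
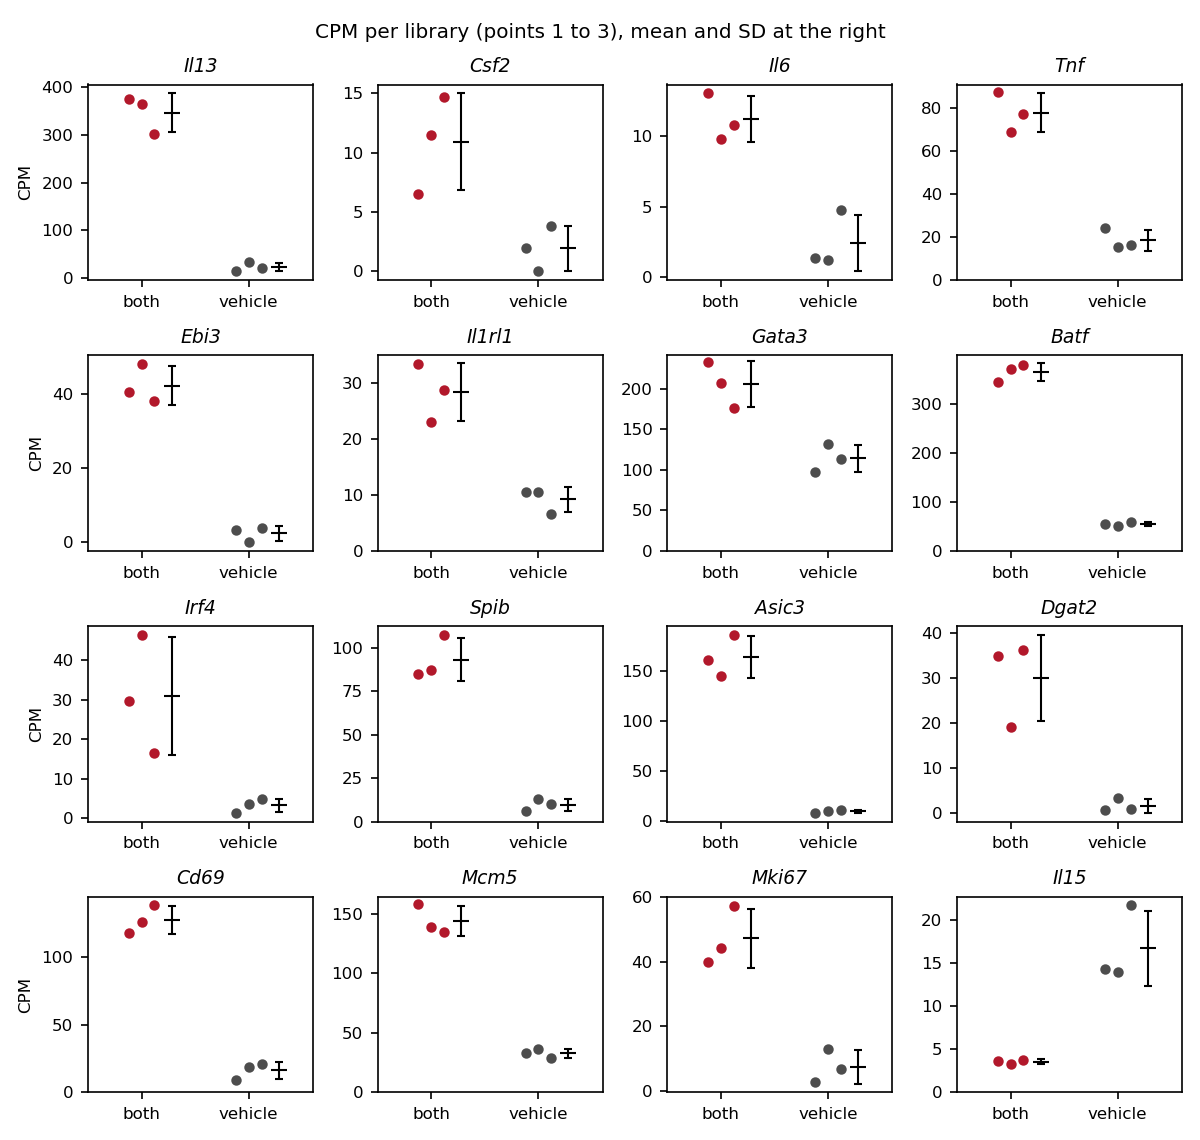
CPM of 16 named genes in each of the 3 libraries with both cytokines (red, left) and the 3 with vehicle (grey, right); bars give the mean and SD of a group and every y axis has its own scale. The groups do not overlap in any panel, and Il15 is the one gene of the 16 that is lower with both cytokines.

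Of 13 alarmin and common gamma chain receptor genes tested, 5 rose and 1 fell (median log2 change 0.45). Il1rl1, the IL-33 receptor, had 33.4, 23.0 and 28.7 CPM with both cytokines, against 10.5, 10.5 and 6.64 CPM with vehicle (1.59 ± 0.31, edgeR adjusted p = 0.00105). Il17ra, the shared chain of the IL-25 receptor, was the member that fell: it had 404, 403 and 401 CPM with both cytokines, against 639, 626 and 677 CPM with vehicle (-0.68 ± 0.11, edgeR adjusted p = 0.000203). Replicates of Il17ra lay close together and the groups did not overlap. Il17rb, the chain specific to IL-25, had 16.0, 14.2 and 10.8 CPM with both cytokines, against 15.04, 34.0 and 19.9 CPM with vehicle and did not pass (-0.68 ± 0.29, edgeR adjusted p = 0.114). Il2ra, the high-affinity IL-2 receptor chain, rose by 0.48 ± 0.12. Crlf2, part of the TSLP receptor, rose by 0.52 ± 0.15, Il2rb by 0.56 ± 0.18 and Il27ra by 0.51 ± 0.17, and these 3 missed the threshold in 4, 4 and 9 of 20 alternatives. Il7r, at 54.8 ± 8.88 CPM with both cytokines and 41.4 ± 8.60 CPM with vehicle, Il2rg, Il4ra, Il10ra, Il18r1 and Il18rap did not pass. The count of 5 was 2 without library 2 with both cytokines or without vehicle library 2, and 3 without library 1 with both cytokines or without vehicle library 1 or 3. Without vehicle library 1, 2 receptors were lower.

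Transcription factors of ILC2 and of activated lymphocytes moved in both directions, with 7 of 22 tested higher, 3 lower and a median log2 change of -0.18. Batf, a partner of IRF4 at lymphocyte enhancers, had 344, 371 and 378 CPM with both cytokines, against 54.9, 51.5 and 58.8 CPM with vehicle (2.72 ± 0.20, edgeR adjusted p = 2e-09). Pou2f2, which encodes OCT2, had 154, 152 and 166 CPM with both cytokines, against 27.5, 30.5 and 22.8 CPM with vehicle (2.55 ± 0.15, edgeR adjusted p = 8.83e-11). Spib, an ETS factor best known from B and plasmacytoid dendritic cells, had 85.0, 87.5 and 108 CPM with both cytokines, against 5.88, 12.9 and 10.4 CPM with vehicle (3.34 ± 0.30, edgeR adjusted p = 5.05e-08). In these 3 genes replicates were close and the groups far apart. Irf4 (mm10 chromosome 13, 30749226 to 30766976) varied more, with 29.8, 46.5 and 16.6 CPM with both cytokines, against 1.31, 3.51 and 4.74 CPM with vehicle (3.37 ± 0.59, edgeR adjusted p = 0.000387). Gata3, the factor that ILC2 require, rose to 205 ± 28.7 CPM with both cytokines, against 114 ± 16.9 CPM with vehicle (SD, n = 3 each; 0.86 ± 0.14). Bhlhe40, a regulator of cytokine output, rose by 0.98 ± 0.16, and Ikzf3, an Ikaros-family factor, was low and uneven at 7.99, 17.0 and 3.18 CPM with both cytokines, against 1.31, 1.17 and 0.949 CPM with vehicle (edgeR adjusted p = 0.0133). The lower 3 were Bcl6 (-1.07 ± 0.29), a repressor found in follicular helper T cells and in ILC2 progenitors, Tcf7 (-0.39 ± 0.12), a factor of progenitors and early T cells, and Runx3 (-0.43 ± 0.14). None of these 3 passed without vehicle library 1 or 3 or without library 2 with both cytokines, and 1 passed without library 3 with both, vehicle library 2 or IL-25 library 3, while 5 factors were lower without IL-33 library 3. Ikzf3 missed without vehicle library 1 or 3 or library 2 with both cytokines. Rora, Id2, Ets1, Gfi1, Bcl11b, Maf and Pparg were among the 12 that did not pass.

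NF-kB is held in the cytoplasm by inhibitor proteins, some of which are themselves among its targets, so that activation can raise their RNA. Of 16 subunits, inhibitors and targets 7 rose and 0 fell, with a median log2 change of 0.51. Nfkbia, the main inhibitor, had 657, 642 and 571 CPM with both cytokines, against 273, 364 and 349 CPM with vehicle (0.93 ± 0.13, edgeR adjusted p = 2.35e-05). Tnip1, which restrains the pathway with A20, had 177, 181 and 173 CPM with both cytokines, against 94.2, 93.7 and 102 CPM with vehicle (0.87 ± 0.13, edgeR adjusted p = 5.99e-05). Neither gene overlapped between the groups. The atypical inhibitors Nfkbiz (1.68 ± 0.21) and Bcl3 (1.34 ± 0.23), the kinase gene Map3k8 (0.85 ± 0.17) and the non-canonical subunits Relb (1.76 ± 0.23) and Nfkb2 (0.52 ± 0.16) also rose. The canonical subunits did not pass: Rela averaged 165 CPM with both cytokines and 170 CPM with vehicle, and Nfkb1 (0.19 ± 0.14) and Rel (0.15 ± 0.44) had small log2 changes. Nor did the inhibitors Tnfaip3 (-0.10 ± 0.27), which encodes A20, Nfkbie (0.15 ± 0.21), Nfkbib (0.03 ± 0.13) and Nfkbid (0.52 ± 0.19), or Traf2 and Birc3.

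The NF-kB consensus motif, in the form the capitals show above and searched on both strands, stood in 5 of the 12 promoters available for this list (41.7%), those of Bcl3, Nfkb2, Nfkbia, Rel and Tnip1, and in 88 of the 7187 promoters of all genes tested (1.22%). Of the genes called higher with a promoter available 16 of 639 (2.5%) had a match and of those called lower 4 of 467 (0.857%). The matches printed above begin 44 bases before the start for Il6, 29 for Nfkbia and 57 for Tnip1. The 41.7% is a property of the list, which was drawn up from NF-kB genes, and not a test of the response. A match describes letters in this window and is not a measured binding site.

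Surface receptors for costimulation, sensing and migration were part of the response. Of 13 costimulatory and inhibitory receptor genes 6 rose, Il2ra among them, and 1 fell. Cd69, an early activation marker that holds lymphocytes in tissue, had 118, 126 and 138 CPM with both cytokines, against 9.15, 18.7 and 20.9 CPM with vehicle (3.04 ± 0.21, edgeR adjusted p = 1.28e-09). Tnfrsf9, which encodes 4-1BB, had 16.7, 25.7 and 18.5 CPM with both cytokines, against 0.654, 0 and 4.74 CPM with vehicle (3.48 ± 0.52, edgeR adjusted p = 6.46e-05). Both genes were low or near 0 in each vehicle library. Tnfrsf25, the receptor of TL1A, rose by 2.75 ± 0.37, Icos by 1.45 ± 0.32 and the adhesion receptor Cd44 by 2.38 ± 0.62. Cd27, a costimulatory receptor of naive and progenitor cells, fell to 208 ± 21.6 CPM with both cytokines, against 322 ± 27.5 CPM with vehicle (-0.63 ± 0.14). Tnfrsf18, Tnfrsf4, Ctla4 and Cd28 did not pass.

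Asic3, an acid-sensing ion channel (mm10 chromosome 5, 24413392 to 24417835), rose as well. It had 161, 145 and 186 CPM with both cytokines, against 7.85, 9.37 and 10.4 CPM with vehicle, a fitted 17.9-fold difference (4.16 ± 0.25, edgeR adjusted p = 1.86e-10). The prostaglandin receptors Ptger4 (1.71 ± 0.18) and Ptgir (1.21 ± 0.22), for prostaglandin E2 and prostacyclin, rose with it, which makes 3 of 8 sensor genes higher and 0 lower. Of the neuropeptide receptors, Calcrl and Ramp1, the pair that binds CGRP, and Vipr2 did not pass.

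Ccl5, a chemokine for T cells and eosinophils, had 442, 423 and 390 CPM with both cytokines, against 63.4, 75.0 and 70.2 CPM with vehicle (2.60 ± 0.22, edgeR adjusted p = 3.25e-08). Ccl3, an inflammatory chemokine, had 11.6, 33.4 and 30.6 CPM with both cytokines, against 3.27, 7.03 and 8.54 CPM with vehicle (2.10 ± 0.47, edgeR adjusted p = 0.00347), and it missed the threshold without vehicle library 1 (edgeR adjusted p = 0.0503). All libraries with both cytokines were above all vehicle libraries for both genes. Of 13 chemokines and homing receptors 4 rose and 1 fell: Ccr7, which leads cells to lymph vessels, rose by 0.47 ± 0.12, Ccr4 by 0.89 ± 0.29, and Itga4, an alpha integrin chain, fell by 0.80. Ccr4 missed by DESeq2, by limma-voom, without library 1 with both cytokines and without any 1 of the vehicle libraries. The 4 were 2 without vehicle library 1, and 2 members were lower without vehicle library 3. Ccr9, S1pr1, Itgae and Itgb7 were among those that did not pass.

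Proliferation genes had the highest share of members called of the lists with more than 11 tested. DNA replication needs the MCM helicase, nucleotide supply and polymerases, which E2F factors induce at the G1 to S boundary, while mitotic genes follow later under CHR-binding complexes. Of 21 S phase genes 20 rose and 0 fell, with a median log2 change of 1.96, and 18 to 20 rose with any 1 of the 12 libraries left out. Mcm5 had 158, 139 and 134 CPM with both cytokines, against 33.3, 36.3 and 28.5 CPM with vehicle (2.13 ± 0.21, edgeR adjusted p = 3.69e-07). Rrm2, the regulated subunit of ribonucleotide reductase, had 69.7, 57.4 and 66.2 CPM with both cytokines, against 4.58, 7.03 and 7.59 CPM with vehicle (3.37 ± 0.35, edgeR adjusted p = 6.81e-07). The groups were far apart in both genes. Tk1, thymidine kinase, rose by 3.35 ± 0.40, Chaf1a, a histone chaperone, by 2.60 ± 0.27, and Pcna, the polymerase clamp, by 0.95 ± 0.14. Slbp, a histone mRNA binding protein, was the member that did not pass (0.67 ± 0.39).

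Of 19 mitosis genes 15 rose and 0 fell, with a median log2 change of 2.0, and 10 to 16 rose with 1 library left out. Top2a, the topoisomerase that untangles sister chromatids, had 100, 111 and 143 CPM with both cytokines, against 25.5, 38.7 and 17.1 CPM with vehicle (2.16 ± 0.22, edgeR adjusted p = 4.04e-07). Mki67, the Ki-67 antigen, had 40.0, 44.3 and 57.3 CPM with both cytokines, against 2.62, 12.9 and 6.64 CPM with vehicle (2.84 ± 0.34, edgeR adjusted p = 3.95e-06). Ube2c, the ubiquitin-conjugating enzyme of the anaphase-promoting complex, had 47.2, 50.3 and 84.7 CPM with both cytokines, against 5.88, 12.9 and 8.54 CPM with vehicle (2.82 ± 0.38, edgeR adjusted p = 2.33e-05). Library 3 with both cytokines was the highest of the 6 for each of these 3 genes. The members Ccnb1, Cdc20, Kif20a and Ckap2l did not pass, with log2 changes from 0.63 for Cdc20 to 1.66 for Ccnb1. Of 16 G1 cyclins, kinases and inhibitors 8 rose and 0 fell. Ccne2, cyclin E2, had 48 counts over the libraries with both cytokines and 0 with vehicle, at least 11.5-fold higher against a floor of 3 counts over the group. E2f8, an E2F repressor, had 48 counts with both cytokines and 1 with vehicle, a ratio of 34.6 with a 95% counting interval from 5.91 to 1.39e+03. Ccne1 (1.70 ± 0.29), E2f1 (2.21 ± 0.33), Cdk4 (0.48 ± 0.12) and the inhibitor Cdkn1a (1.79 ± 0.18), which encodes p21, rose as well, and so did the cyclin D gene Ccnd3 (0.40 ± 0.11), while Ccnd2 did not pass (0.22 ± 0.12). Cdk4 missed without vehicle library 3 (edgeR adjusted p = 0.0571), and 1 or 2 members of this list were lower without 1 of the IL-33 libraries.

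The E2F letters TTTNNCGC were found in 6 of 19 S phase promoters (31.6%), in 0 of 16 mitosis promoters and in 9.35% of the 7187 promoters of all genes tested. In Mcm5 a match on each strand, 153 and 149 bases before the start, overlap in 1 block. The CHR letters TTTGAA were found in 11 of 16 mitosis promoters (68.8%), in 3 of 19 S phase promoters (15.8%) and in 11.7% of all. Top2a has them 179 and 23 bases before the start and Ube2c 29 bases before it. CCAAT, the box of NF-Y, stood in 78.9% of S phase, 81.2% of mitosis and 39.2% of all promoters. Both strands were searched, and matches to one motif were counted whether or not another overlapped them. These shares are a property of the lists and not a test of the response. Among genes called higher and called lower, CHR letters stood in 15.6% and 15.6% of promoters. E2F letters stood in 11.6% and 6.42%, and CCAAT in 40.8% and 37.9%. Among those called at least 2-fold higher and lower, CHR letters stood in 22.4% and 23.7%.

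**Figure D3:**
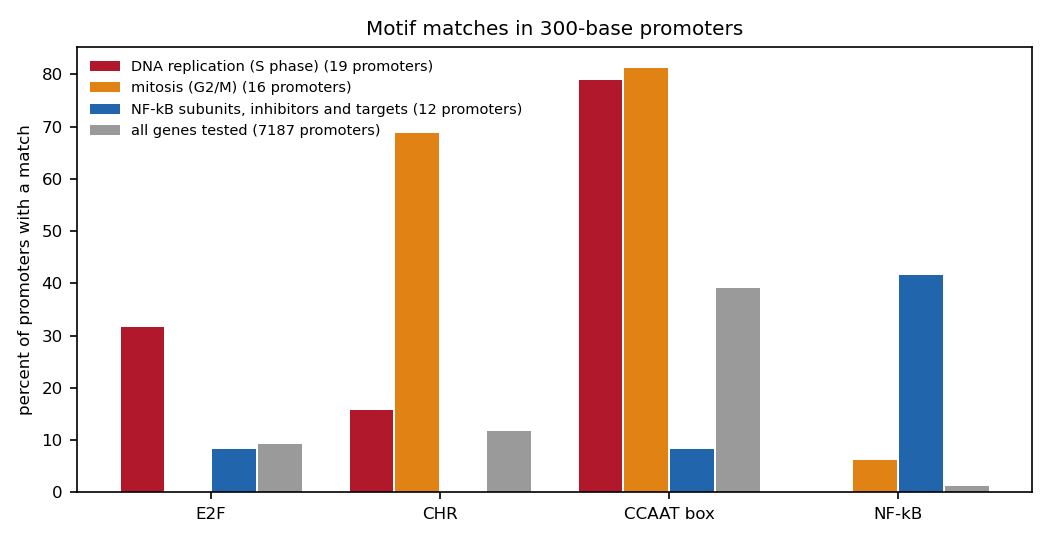
Percent of promoters (250 bases before to 50 after the start, y axis) with at least 1 match to the E2F, CHR, CCAAT box or NF-kB letters (x axis), for the S phase, mitosis and NF-kB lists and for the 7187 promoters of all genes tested (grey). The tallest bars within a motif are S phase for E2F (31.6%), mitosis for CHR (68.8%) and the NF-kB list for NF-kB (41.7%).

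The lipid, cholesterol, serine, glycolysis, respiration, ribosome and secretion lists had median log2 changes of 0.29 to 0.56, with most called members higher. Dgat2, which makes triglycerides (mm10 chromosome 7, 99153658 to 99182719), had the largest fitted rise among the lipid genes, with 34.9, 19.1 and 36.3 CPM with both cytokines, against 0.654, 3.51 and 0.949 CPM with vehicle (4.26 ± 0.59, edgeR adjusted p = 2.61e-05). Mgll, which breaks down monoglycerides, had 20.3, 36.1 and 38.9 CPM with both cytokines, against 8.50, 5.86 and 6.64 CPM with vehicle (2.14 ± 0.32, edgeR adjusted p = 8.1e-05), and the fatty acid carrier Fabp5 rose by 2.02 ± 0.34. Groups did not overlap for these 3 genes, while the other lipid droplet and oxidation genes tested, Dgat1, Plin2, Pnpla2, Acsl4 and Cpt1a, did not pass. Lpcat2 was called lower (-1.30 ± 0.43) and lost that call in 12 of the 18 alternatives that tested it. Tph1, the enzyme that starts serotonin synthesis, had 46 counts with both cytokines and 0 with vehicle, at least 11-fold higher against the floor of 3 counts over the group. Srm, spermidine synthase, rose by 0.90 ± 0.13, while Odc1, which precedes it, was at 0.12 ± 0.30.

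Of the serine and one-carbon enzymes, Mthfd2 (1.65 ± 0.32), Psat1 (1.25 ± 0.24), Phgdh (0.94 ± 0.17) and Shmt2 (0.90 ± 0.15) rose, among 6 of 14 ATF4, serine pathway and tRNA synthetase genes higher and 0 lower. Psph, which completes serine synthesis, did not pass and had the groups separate in the other direction (-0.32 ± 0.16, edgeR adjusted p = 0.185). Atf4 itself, which encodes the factor, was at 0.25 ± 0.13 and did not pass. Of 19 genes of the unfolded protein response and secretion 9 rose and 0 fell, among them the chaperones Calr (1.07 ± 0.12) and Hspa5 (0.82 ± 0.14) and the translocon subunit Sec61b (0.75 ± 0.15). Xbp1, a factor that drives this response, had 477, 481 and 496 CPM with both cytokines, against 439, 444 and 461 CPM with vehicle, and did not pass (0.11 ± 0.11). Of 15 oxidative phosphorylation subunits 8 rose and 0 fell, among them Cox5a (1.02 ± 0.20) and Atp5g1 (0.88 ± 0.15). That count was 4 without vehicle library 1 and 5 without library 3 with both cytokines.

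Of 14 cholesterol and fatty acid synthesis genes 5 rose and 0 fell, among them Hmgcs1 (0.79 ± 0.17), Cyp51 (1.24 ± 0.34) and Fdps (0.53 ± 0.13). That count was 1 without vehicle library 1, 2 without library 3 with both cytokines, and 3 without library 1 with both or vehicle library 3. Ribosome biogenesis had 7 of 20 higher, with Npm1 (0.65 ± 0.13), Fbl (0.83 ± 0.21) and Myc (0.73 ± 0.24), and Wdr12 lower (-0.53 ± 0.17). It had 4 higher without vehicle library 1, and Wdr12 was lost without any 1 of the vehicle libraries or of libraries 1 and 3 with both cytokines. Glycolysis had 5 of 14 higher, with Tpi1 (0.80 ± 0.14), Aldoa (0.49 ± 0.12) and Ldha (0.45 ± 0.13), and counts of 2 without vehicle library 1 or 3 and 3 without vehicle library 2 or library 2 or 3 with both cytokines. Gapdh, counted among the 5, had 811, 815 and 913 CPM with both cytokines, against 10.5, 8.20 and 3.80 CPM with vehicle (6.75 ± 1.67, edgeR adjusted p = 0.00801). It has many near-identical genomic copies, and their part in its counts was not tested. Among the single-cytokine libraries, 2 of 6 were as high (1412 CPM with IL-25 and 924 CPM with IL-33) and the other 4 held 8.04 to 12.8 CPM. Gapdh missed the threshold without vehicle library 1, by DESeq2 and by limma-voom (highest adjusted p = 0.075). Proteasome and chaperonin genes had 1 of 15 higher, Cct2 (0.38 ± 0.12), near the 8.97% of all genes tested that were called higher. That count was 0 without any 1 of the vehicle libraries or of libraries 2 and 3 with both cytokines, 2 without IL-33 library 1 and 4 without IL-33 library 3. Interferon response genes had 0 of 10 called in either direction by edgeR (1 at an unadjusted p under 0.05, against 29.3% of all genes tested), 0 by DESeq2, and 1 without vehicle library 1, IL-33 library 1 or IL-33 library 3.

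Most survival and signal feedback genes were not called, and the calls went in both directions. Bcl2l1, which encodes the survival protein BCL-XL, had 161, 126 and 118 CPM with both cytokines, against 43.8, 44.5 and 35.1 CPM with vehicle (1.70 ± 0.16, edgeR adjusted p = 1.93e-07). Bcl2, its relative, moved the other way, with 207, 197 and 218 CPM with both cytokines, against 294, 295 and 308 CPM with vehicle (-0.53 ± 0.12, edgeR adjusted p = 0.00428). Neither gene overlapped between the groups. Of 14 apoptosis regulators 3 rose and 1 fell. That 1 of 14 is near the 6.67% of all genes tested that were called lower. JAK-STAT genes had 3 of 16 higher and 2 lower. Pim2 (1.12 ± 0.12), Cish (1.01 ± 0.17) and Jak2 (0.38 ± 0.13) rose, while Jak1 (-0.69 ± 0.11) and Socs3 (-0.53 ± 0.15) fell. Of these 5, Jak2 missed in 7 of 20 alternatives, among them the fits without any 1 of the vehicle libraries or of libraries 2 and 3 with both cytokines, and Socs3 missed without vehicle library 1 or 2 or library 2 or 3 with both. The count of 2 lower was 1 without vehicle library 1 or 2 or library 3 with both cytokines. Pim1 (-0.12 ± 0.14), Socs1 (0.06 ± 0.17) and Socs2 (-0.34 ± 0.14), in the same list, did not pass. Of 13 immediate early and MAPK feedback genes at this 24 h time 2 rose and 0 fell. That share is near the 15.6% of all genes tested that were called in either direction. The 2 were Gadd45b (1.85 ± 0.21) and Junb (0.46 ± 0.15), and Junb missed by DESeq2, without vehicle library 1 or 3 and without any 1 library with both cytokines. Fos, Jun, Egr1, Dusp1 and Nr4a1 did not pass.

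**Figure D4:**
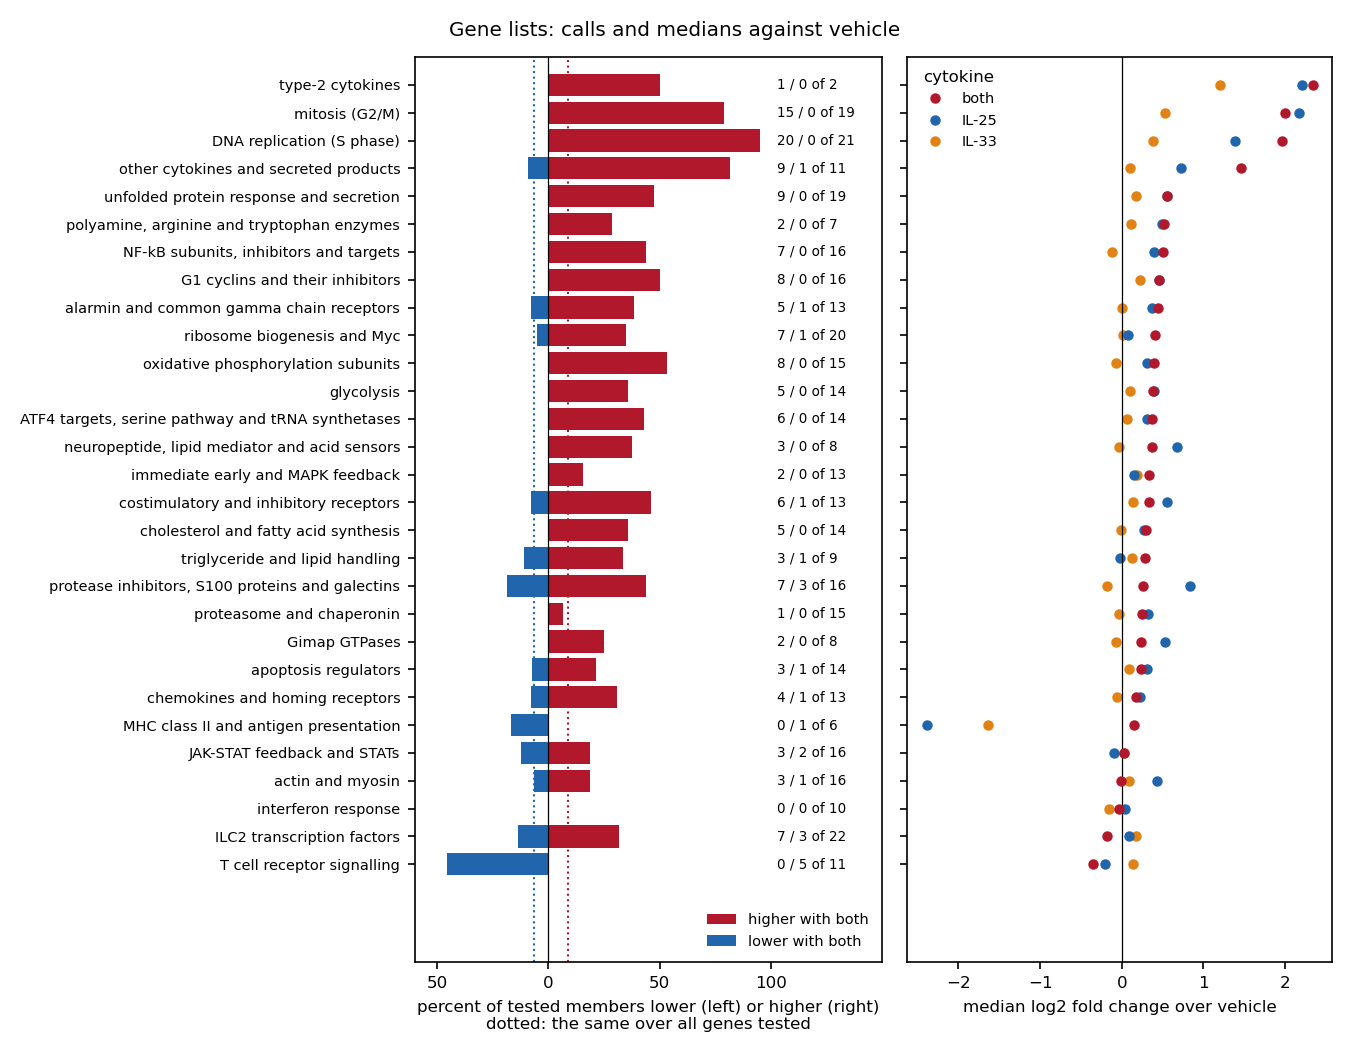
Left, percent of the tested members of 29 gene lists called higher (red, right of 0) or lower (blue, left of 0) with both cytokines against vehicle by edgeR, with the counts higher / lower of tested at the right and dotted lines at the shares over all genes (8.97% and 6.67%). Right, the median log2 fold change over vehicle of each list for both cytokines, IL-25 and IL-33 against the same vehicle libraries; in the left panel S phase (20 of 21), other cytokines (9 of 11) and mitosis (15 of 19) reach furthest to the right and T cell receptor signalling (5 of 11) furthest to the left.

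Genes that fell included those of antigen receptor signalling, a set that T cells need and ILC2 can carry in part. Of 11 tested 5 fell and 0 rose, with a median log2 change of -0.35. Cd3g, a chain of the T cell receptor complex, had 206, 166 and 164 CPM with both cytokines, against 324, 301 and 268 CPM with vehicle (-0.74 ± 0.19, edgeR adjusted p = 0.00835). Themis, which tunes receptor signals in thymocytes, had 108, 106 and 94.9 CPM with both cytokines, against 190, 157 and 162 CPM with vehicle (-0.73 ± 0.17, edgeR adjusted p = 0.00428). The groups were separate in both. Cd3d (-0.70 ± 0.16), the kinase Lck (-0.40 ± 0.12) and the adaptor Lat (-0.35 ± 0.11) fell too, and Cd3e (0.17 ± 0.13), Cd247 and Zap70 did not pass. Beside them Dntt fell (-0.93 ± 0.13, edgeR adjusted p = 2.63e-05), and the summed level of the T cell markers was 608 to 677 CPM with both cytokines and 947 to 1020 CPM with vehicle, mostly from Dntt. The part of T-lineage transcripts in these falls was not tested. The count of 5 was 3 without any 1 of the vehicle libraries or of libraries 2 and 3 with both cytokines, and Cd3g missed without vehicle library 1 (edgeR adjusted p = 0.055).

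Other large falls were of single genes. Wfdc18, a secreted protein with a protease-inhibitor fold, had 10.2, 12.0 and 8.28 CPM with both cytokines, against 36.0, 50.4 and 46.5 CPM with vehicle (-2.08 ± 0.29, edgeR adjusted p = 3.29e-05). Wfdc21, of the same fold, moved the other way, with 41.4, 36.1 and 61.8 CPM with both cytokines, against 0, 3.51 and 3.80 CPM with vehicle (4.43 ± 0.50, edgeR adjusted p = 1.73e-06). Clec12a, an inhibitory lectin receptor, had 6.54, 5.47 and 4.46 CPM with both cytokines, against 24.2, 22.3 and 19.9 CPM with vehicle (-2.01 ± 0.41, edgeR adjusted p = 0.00156). All 3 genes were separate between the groups. Abcg3 (-1.89 ± 0.28), Tent5a (-1.57 ± 0.33), Purg (-1.56 ± 0.28), Lypd6b (-1.49 ± 0.34), Ifi206 (-1.40 ± 0.30) and Rhoh (-1.39 ± 0.34), a GTPase of lymphocytes, fell with them, along with C330026H20Rik (-2.03 ± 0.46), Morc1 (-1.76 ± 0.40), Zfp354c (-1.58 ± 0.42), Dcaf10 (-1.42 ± 0.41) and E130307A14Rik (-1.33 ± 0.38). Without vehicle library 1 the calls of Morc1, Rhoh, Dcaf10 and E130307A14Rik were lost, without vehicle library 3 those of Zfp354c and Dcaf10, and without library 1 or 2 with both cytokines those of Dcaf10 and E130307A14Rik, with Zfp354c lost without library 1 as well. Apoe, the lipid carrier apolipoprotein E, was called lower on 1 library: it had 102, 87.5 and 79.6 CPM with both cytokines, against 82.4, 132 and 700 CPM with vehicle, and without vehicle library 3 its log2 change was -0.22 (edgeR adjusted p = 0.74). It also missed by DESeq2, by limma-voom and without library 2 or 3 with both cytokines.

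Secreted and membrane-binding lymphocyte proteins moved in both directions. Lgals1, galectin 1, had 4637, 5566 and 5867 CPM with both cytokines, against 1925, 2220 and 2110 CPM with vehicle (1.36 ± 0.12, edgeR adjusted p = 3.25e-08). Lgals3 (0.75 ± 0.10), S100a6 (0.67 ± 0.14), Anxa2 (1.0 ± 0.13) and the protease inhibitors Serpina3g (1.86 ± 0.17) and Serpina3f (2.03 ± 0.51), near-identical neighbours whose counts could be split between them, rose, while S100a11 (-1.24 ± 0.26) and Serpinb1a (-0.72 ± 0.19) fell. With Wfdc21 and Wfdc18 this gives 7 of 16 higher and 3 lower. Myl4, a myosin light chain best known from the heart atrium, had 56.7, 67.8 and 74.5 CPM with both cytokines, against 2.62, 8.20 and 2.85 CPM with vehicle (3.99 ± 0.29, edgeR adjusted p = 2e-09). Myl6, its widely expressed relative, fell by 0.75, and Actb was at 0.21 ± 0.13, among 3 of 16 actin and myosin genes higher and 1 lower. That 1 of 16 is near the 6.67% of all genes tested that were called lower. Of the Gimap GTPases, Gimap4 (1.20 ± 0.19) and Gimap3 (0.85 ± 0.14) rose and the other 6 tested did not pass. Of the large rises not yet named, Lad1, a filament-anchoring protein, had 100 counts with both cytokines and 2 with vehicle, a ratio of 36.0 with a 95% counting interval from 9.71 to 301. Sema6d, a semaphorin, rose by 3.86 ± 0.32, Asb2, a ubiquitin ligase subunit of activated lymphocytes, by 3.67 ± 0.32, and Adap1, an adaptor that acts on ARF GTPases, by 3.61 ± 0.36.

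Markers of other cell types were measured beside these results. Of 2 NK cell and ILC1 markers tested, Gzma, granzyme A, fell to 115 ± 15.9 CPM with both cytokines, against 260 ± 6.79 CPM with vehicle (-1.17 ± 0.16), and Gzmb, granzyme B, had 45 counts with both cytokines and 1 with vehicle, a ratio of 32.4 with a 95% counting interval from 5.53 to 1.31e+03. Kit, the one ILC3 marker tested, rose by 0.61 ± 0.14, and Pecam1, an endothelial and leukocyte surface protein, by 1.22 ± 0.14. Dcn and Col1a2, the fibroblast genes tested, stood at 9.55 to 16.4 CPM and 6.54 to 15.3 CPM with both cytokines, against 5.88 to 14.2 CPM and 5.23 to 15.2 CPM with vehicle. Of 4 myeloid markers Tyrobp (1.10 ± 0.27) and Fcer1g (0.74 ± 0.23) rose, Cd68 and Ctss did not pass, and the sum was 316 to 324 CPM with both cytokines and 279 to 318 CPM with vehicle. Tyrobp missed the threshold without vehicle library 1 (edgeR adjusted p = 0.0895), and Fcer1g did without any 1 of the 6 libraries and by DESeq2. The B cell marker Cd79b was at 173 to 212 CPM with both cytokines and 134 to 181 CPM with vehicle, the mast cell marker Cpa3 at 27.6 to 33.1 CPM with both cytokines and 23.4 to 34.0 CPM with vehicle, and the epithelial marker Epcam at 7.01 to 10.9 CPM with both cytokines and 4.69 to 9.15 CPM with vehicle, and none of these 3 passed. Aire had 0 counts in 2 of the 3 libraries of each group. MHC class II genes, which present antigen, were uneven within the vehicle group: H2-Aa had 59.6, 62.4 and 46.5 CPM with both cytokines, against 29.4, 49.2 and 69.3 CPM with vehicle, and of 6 genes of that list H2-DMa alone passed (-0.54 ± 0.13). The part of other cells in the results was not tested.

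Both cytokines differed from IL-25 alone at 278 genes (3.14%; 120 or 1.36% higher, 158 or 1.79% lower) and from IL-33 alone at 1519 (17.2%; 822 or 9.29% higher, 697 or 7.88% lower), by the same edgeR fit and threshold. Of the 1384 genes that differed from vehicle, 131 also differed from IL-25 alone, 886 from IL-33 alone, 101 from both and 468 from neither. Of the 794 that rose, 67 were higher still than with IL-25 and 10 were lower than with IL-25, while 543 were higher than with IL-33 and 0 lower. All of these comparisons share the libraries with both cytokines. Without library 2 or 3 with both cytokines the count against IL-33 was 946 and 933.

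The comparison with IL-25 crosses the Glycam1 split, so treatment and split cannot be told apart in it except through the IL-33 group, whose library 3 alone lies on the other side from its replicates. The comparison with IL-33 crosses the split in part, since IL-33 libraries 1 and 2 lie across it from the libraries with both cytokines. With the split as a term, added after the data were seen, 5 genes differed between both cytokines and IL-25, 1 of them among the 278. They were Alox5ap, Fam120a, Lsm7, Rap1b and Snx5, named after their values were seen. Between both cytokines and IL-33 649 genes differed, 465 of them among the 1519. Between both cytokines and vehicle 1730 differed, the 1384 among them. These groups lie on the same side of the split, so the term cannot test this comparison against it. Fitted on the 2 compared groups alone, 870 genes differed from IL-25 and 982 from IL-33. The count of 278 also moved with single libraries: it was 84, 80 and 166 without libraries 1, 2 and 3 with both cytokines, 99, 120 and 99 without IL-25 libraries 1, 2 and 3, and 444 and 620 without IL-33 libraries 1 and 3.

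With those limits, a small set of genes stood above IL-25 alone. Irf4 had 29.8, 46.5 and 16.6 CPM with both cytokines, against 1.30, 1.42 and 1.39 CPM with IL-25 (4.43 ± 0.64, edgeR adjusted p = 0.00113; 2.02 ± 1.22 and adjusted p = 0.592 with the split as a term). Il6 had 13.1, 9.85 and 10.8 CPM with both cytokines, against 1.30, 0.708 and 2.78 CPM with IL-25 (2.74 ± 0.52, edgeR adjusted p = 0.00604; 3.35 ± 1.55 and 0.485 with the term). Dgat2 had 34.9, 19.1 and 36.3 CPM with both cytokines, against 3.24, 4.96 and 1.39 CPM with IL-25 (3.19 ± 0.47, edgeR adjusted p = 0.00113; 2.28 ± 0.74 and 0.283 with the term). None of the 3 overlapped between the groups. Ccl3 (2.97 ± 0.49), Mgll (1.88 ± 0.30), Spib (1.29 ± 0.22), Sema6d (1.14 ± 0.22), Wfdc21 (1.16 ± 0.31) and Cd69 (0.84 ± 0.16) were higher than with IL-25 as well, and with the term none passed and Spib stood at -0.66 ± 0.60 and Wfdc21 at -0.80 ± 0.81. The largest rises over IL-25 at a mean of 10 CPM or more were those of Glycam1, Clu, Lad1, H2-Eb1 and H2-Aa, and Glycam1 defines the split. With the term none of these 5 passed: Glycam1 stood at 2.51 in place of 10.7, H2-Aa at 1.25 in place of 4.88 (edgeR adjusted p = 0.696), and Clu turned to -1.45 in place of 7.28. H2-Aa had 46.5 to 62.4 CPM with both cytokines, against 1.42 to 2.09 CPM with IL-25.

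Il1rl1 was lower with both cytokines than with IL-25 alone. It had 33.4, 23.0 and 28.7 CPM with both cytokines, against 59.0, 85.0 and 60.5 CPM with IL-25 alone (-1.27 ± 0.22, edgeR adjusted p = 0.00301; -2.16 ± 0.47 and adjusted p = 0.118 with the term). Every library with both cytokines was below every IL-25 library and above every vehicle library. Pou2f2 was likewise lower than with IL-25 alone (-0.49 ± 0.11, edgeR adjusted p = 0.0175; -0.46 ± 0.30 and adjusted p = 0.617 with the term). The largest falls against IL-25 at a mean of 10 CPM or more were of S100a11 (-1.76 ± 0.26), Ppih, Pcgf1, Ppia (-1.46 ± 0.23) and Lsm3. With the term none of these 5 passed: S100a11 stood at -0.63 (edgeR adjusted p = 0.566) and Ppia at -0.28 (edgeR adjusted p = 0.774), and Lsm3 turned to 0.10 (edgeR adjusted p = 0.961). For Il13 (0.76 ± 0.33), Ebi3 (0.61 ± 0.29), Asic3 (0.46 ± 0.17), Batf (0.24 ± 0.16) and Myl4 (-0.21 ± 0.17) the difference from IL-25 alone did not pass, with edgeR adjusted p between 0.125 for Asic3 and 0.553 for Myl4.

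Spib, Asic3 and Il13 were higher with both cytokines than with IL-33 alone, by the fit without the split as a term. Values with the term are not given for single genes against IL-33. Spib had 85.0, 87.5 and 108 CPM with both cytokines, against 3.65, 2.89 and 12.9 CPM with IL-33 (3.93 ± 0.31, edgeR adjusted p = 1.16e-08). Asic3 had 161, 145 and 186 CPM with both cytokines, against 22.6, 6.51 and 18.5 CPM with IL-33 (3.37 ± 0.22, edgeR adjusted p = 6.1e-10). Il13 had 375, 364 and 301 CPM with both cytokines, against 189, 30.4 and 112 CPM with IL-33 (1.65 ± 0.35, edgeR adjusted p = 0.00224). IL-33 library 2 was the lowest of its group for the last 2 genes. Csf2 did not differ past the threshold, with 6.54, 11.5 and 14.7 CPM with both cytokines, against 20.5, 2.17 and 20.3 CPM with IL-33 (-0.34 ± 0.49, edgeR adjusted p = 0.677), and neither did Tph1, at -0.01 ± 0.49. The largest falls against IL-33 rested on IL-33 library 1: Aire was at 10816 CPM in it and 28.2 and 0 CPM in libraries 2 and 3, and Zfp503, Hoxa5 and Tubb3 were at 180 to 283 CPM in it and at 1.85 to 13.9 CPM in the other 2. Clec12a, also lower than with IL-33 (-2.47 ± 0.38), did not rest on 1 library, with 35.8, 41.2 and 12.9 CPM in the IL-33 group.

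**Figure D5:**
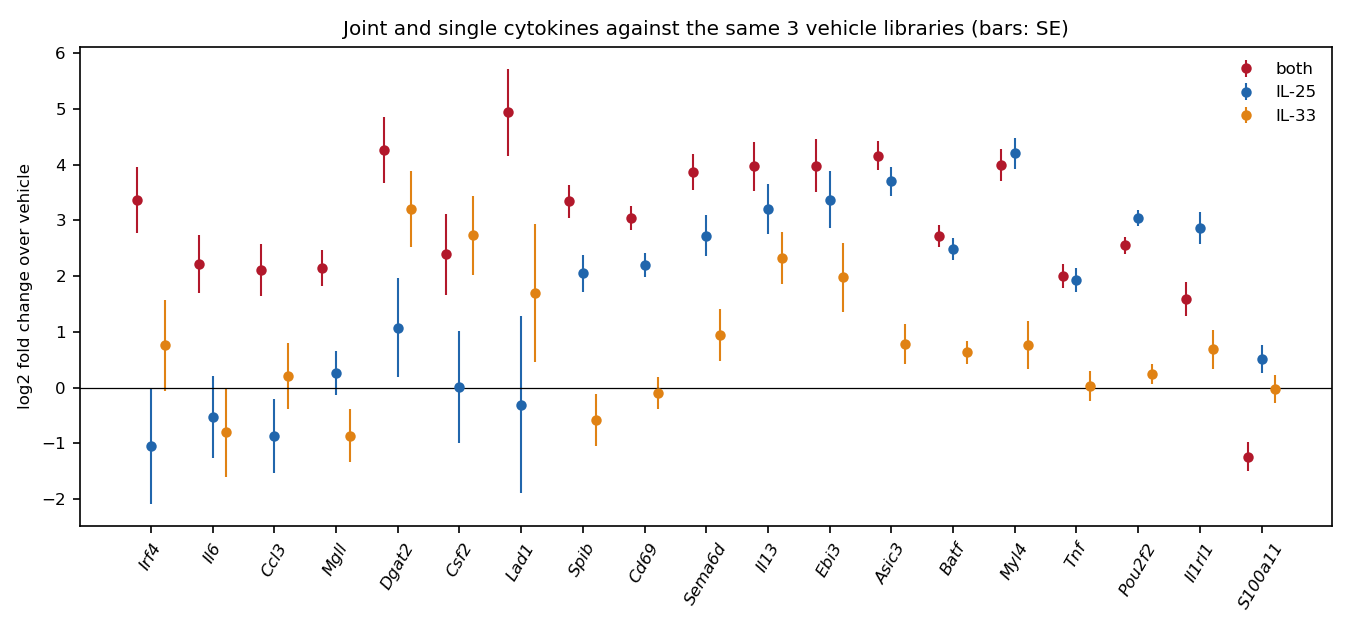
Log2 fold change over the same 3 vehicle libraries (y axis, bars are SE of the edgeR fit) with both cytokines (red), IL-25 (blue) and IL-33 (orange) for 19 genes. Irf4, Il6 and Ccl3 are above 2 with both cytokines and below 0 with IL-25, whereas Il13, Ebi3, Asic3 and Batf are near each other with both cytokines and IL-25; the 3 sets share their vehicle libraries.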

How the data were processed

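Counts per gene and library were deposited by the authors for the 12 IL25R+ libraries, beside a signal (the counts divided by DESeq2 size factors) and regularised log2 values, per the file headers; the counts alone were tested. The submitters' processing notes name bcl2fastq, cutadapt, STAR 2.5.2b, HTSeq, DESeq2 and build mm10; whether reads or molecules were counted is not given in the sources used here. Libraries held 834913 to 1880906 counts, and intervals and floors cover counting error only.

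Genes passing filterByExpr (10 counts, total 15, proportion 0.7) were fitted with edgeR 4.0.16 in R 4.3.3 on all 12 libraries, with TMM and 1 coefficient per group, and Benjamini-Hochberg adjustment over all 8850 genes; SE is the log2 change over the root of F. DESeq2 1.42.0 and limma 3.58.1 (voom) were alternatives. CPM uses the totals of tested genes after TMM. On simulated counts, the test for both cytokines against vehicle recovered 86.8% of genes raised 2-fold and 69% of those lowered to 0.5, with 12 false calls among 8850 genes. Changed genes had a mean of at least 10 CPM and every group had the same dispersion, so the wider spread of the IL-33 libraries was not simulated. All members and lists were chosen with earlier results of these data known. Named genes were the 15 largest changes per direction against vehicle and the 5 against each single cytokine, at a mean of 10 CPM or more; all or the 6 lowest-p members of each list; markers; and Gapdh, Glycam1 and Clu. Others were named after their values were seen. Promoters are RefSeq's, build GRCm38.p6, and positions are from GENCODE M21.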

Additional observations from a re-analysis of the deposited data

How the results depend on the processing

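The comparison with vehicle gave 1730 genes with the Glycam1 split as a term, which does not part these 2 groups. It gave 1099 to 1403 under the other alternatives that kept all 12 libraries, 1874 on the 2 groups alone, and 779 to 1738 with 1 of the 12 left out. Against IL-25 the count was 870 on the 2 groups alone, 5 with the Glycam1 split as a term, and 80 to 620 with 1 library left out. Against IL-33 it was 982, 649 and 933 to 1928. The cause of these moves was not tested, beyond fewer libraries. With the replicate block 1338, 220 and 1392 genes passed against vehicle, IL-25 and IL-33. Same-numbered libraries showed little shared deviation (r from -0.143 to 0.106 over 18 pairs). With 3 libraries a group this check cannot tell whether the numbers pair them. DESeq2 gave 1099, 249 and 1139 genes and limma-voom 1403, 310 and 1509. Of 161 named genes called against vehicle, 115 kept the call in every alternative that tested them (18 to 20 per gene), 46 lost it in at least 1 and 0 changed sign. Genes under about 10 CPM rest on few counts, most of all in vehicle libraries 2 and 3, the shallowest of the 6.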

Other observations

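Of the genes called higher with both cytokines, 15 had 3 counts or fewer over the vehicle group. Some of those not described above are given here, named after their values were seen. Cyp11a1, the enzyme that starts steroid hormone synthesis, had 86 counts with both cytokines and 3 with vehicle, a ratio of 20.6 with a 95% counting interval from 6.83 to 102. Robo1, a guidance receptor, had 49 counts with both cytokines and 1 with vehicle, a ratio of 35.3 from 6.04 to 1.42e+03. Neil3, a DNA glycosylase, had 36 counts with both cytokines and 0 with vehicle, at least 8.64-fold higher against a floor of 3 counts over the group, and Kif18b, a mitotic kinesin, had 33 with both cytokines and 0 with vehicle, at least 7.92-fold. Cxcl3, a neutrophil chemokine under the filter, had 8, 8 and 28 counts with both cytokines and 1, 2 and 2 with vehicle, a ratio of 6.33 from 2.52 to 20.5. Nfil3, a factor needed early in ILC development, had 4, 3 and 1 counts with both cytokines and 9, 7 and 2 with vehicle.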
